A study of Mus musculus with 15 samples.

Results

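The 10 genes described here were grouped as pan-macrophage identity genes, 9 of them expressed by macrophages themselves and 1, Csf1, encoding their growth factor: Adgre1, Csf1r, Csf1, Lyz2, Aif1, Mertk, Laptm5, Mpeg1, Irf8 and Spi1. They were taken by symbol from a table of 39331 genes measured by mRNA sequencing of infarcted left ventricles, and all 10 were among the 16437 genes with enough counts to be tested. The 15 libraries come from C57BL/6 mice and form 4 groups: adult hearts given adult T cells (adult recipients 1, 2, 3 and 4), adult controls without transfer (5, 6 and 7), neonatal hearts given adult T cells (neonatal recipients 1, 2, 4 and 5) and neonatal controls left untreated (6, 7, 8 and 9). All animals underwent experimental myocardial infarction, including the controls, so no uninjured heart is part of any comparison. The sampling time of 36 h is stated for neonatal hearts, and none is stated for adult hearts. Age in days, T cell dose, infarct size, and whether a library holds 1 heart or several are not stated either, so p-values measure the spread between these libraries, which may be technical. The study asked whether adult T cells impair regeneration of the neonatal heart.

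Macrophages depend on the transcription factor PU.1, encoded by Spi1, which opens myeloid genes, and on its partner IRF8, which steers progenitors to the monocyte and macrophage fate. Their survival depends on the receptor CSF1R, which binds the ligand CSF1, made largely by stromal cells, and also interleukin 34. In the heart, macrophages clear dying cells after infarction, and in neonatal mice they are required for regeneration. Of the other genes, Adgre1 encodes the surface protein F4/80, Mertk a receptor for the engulfment of dying cells, Lyz2 a secreted lysozyme, Laptm5 a lysosomal membrane protein of blood cells, Mpeg1 the pore-forming perforin-2 and Aif1 the actin-binding protein IBA1.

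Total counts ran from 21871617 to 34302786 per library, and 3 counts, taken as the detection floor, equalled 0.0875 to 0.137 CPM. The lowest count of any of the 10 genes in any library was 36, for Aif1, so depth did not set the limit for them. Levels are CPM, that is counts set to a common library size, here with edgeR's TMM factors. Ventricular cardiomyocyte markers (8 genes) summed to 59300 to 65600 CPM in adult recipients, 47400 to 51400 in adult controls, 40600 to 49400 in neonatal recipients and 43300 to 47500 in neonatal controls, against at most 114 CPM for 5 atrial markers in any library, so ventricular markers led in every library. Neonatal control 8 stood apart: it was the lowest of the 8 neonatal libraries for all 10 genes, and results that rest on it are given with and without it.

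Fitted levels of every member were lower in adult than in neonatal hearts of the same treatment, and the difference passed the test for all 10 in recipients and for 6 in controls. The perforin-2 gene Mpeg1 had the largest difference, Adgre1 and Aif1 followed, and Csf1, Irf8, Csf1r and Mertk differed least. Between recipients, all 10 genes fell in adult hearts, by log2 fold changes of -3.72 to -0.85 with a median of -1.68 (adjusted p of 6.1e-06 to 0.00305, edgeR), and 26.9% of all tested genes were called lower. The median over all tested genes was -0.03. Between controls, 6 of 10 fell (Mpeg1, Aif1, Adgre1, Spi1, Laptm5 and Mertk), with a median over the 10 of -1.01 against -0.02 over all genes, and 15.4% of all tested genes were called lower. Libraries did not overlap between adult and neonatal recipients for all 10 genes, which held for 23.8% of tested genes in the lower direction, and between controls for 3 (Mpeg1, Adgre1 and Aif1), against 16.9%. With library totals in place of TMM, the median of all genes shifted to -0.23 in recipients and -0.18 in controls, and 10 and 9 members were then called lower. In bulk tissue, fewer macrophages and less RNA per macrophage cannot be told apart, and age cannot be told apart from anything else that differed between adult and neonatal experiments.

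**Figure D1:**
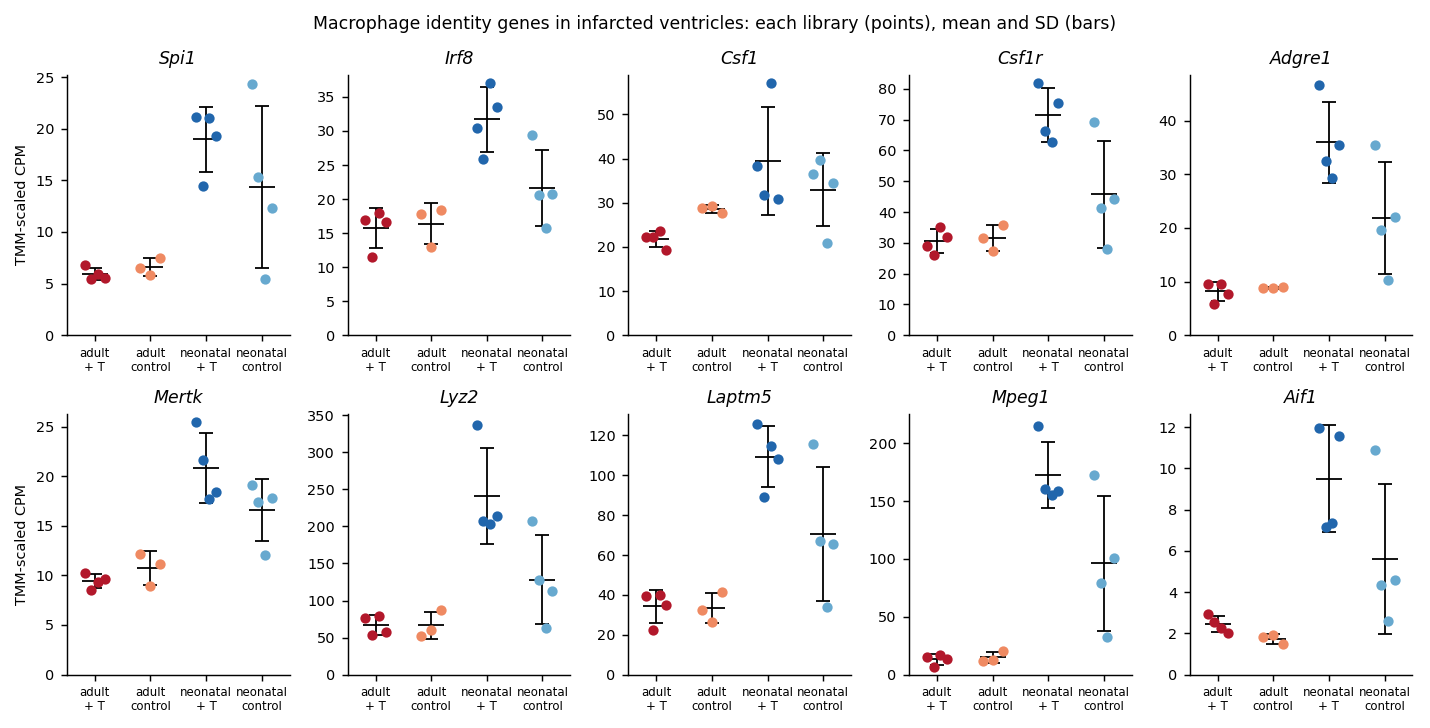
TMM-scaled CPM (vertical axis, linear, from 0) of each gene in every library, by group; points are libraries, the long dash is the mean and the whiskers are the SD. Adult libraries lie below nearly all neonatal ones, and for Mpeg1 the adult libraries stay between 6.55 and 20.6 CPM while neonatal controls spread from 32.6 to 173.

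The promoters of the members are shown for their sequence, and their part in the age differences was not tested. The 250 bases before each RefSeq start were searched for the PU.1 core GAGGAA and for the composite ETS-IRF element that PU.1 and IRF8 bind together, on both strands. The RefSeq table held 8 promoters of 7 members, those of Irf8 at 2 starts. GAGGAA occurred in 2 of the 8, those of Aif1 and Laptm5, which is near the share of 23.3% among 32851 promoters. The composite element occurred in 0 of the 8, against 2.3%. Both matches are on the strand opposite to the gene, 7 and 38 bases before the start, and read TTCCTC, which the capitals mark in the 30 bases shown from each. A match describes the letters and is not evidence of binding. For Lyz2, the member with the highest level per kilobase, and for Mpeg1, with the widest gap between ages, the stretch outside the counted gene is shown, in which neither motif was found (RefSeq, GRCm38.p6, gene strand, 5′ to 3′).
Aif1 (chr17:35176053-35176082, minus strand): tagccgtggtgataggcacccagTTCCTCc
Laptm5 (chr4:130913266-130913295, plus strand): gcagcctgtggcTTCCTCttttttgttctg
Lyz2 (chr10:117282273-117282522, minus strand): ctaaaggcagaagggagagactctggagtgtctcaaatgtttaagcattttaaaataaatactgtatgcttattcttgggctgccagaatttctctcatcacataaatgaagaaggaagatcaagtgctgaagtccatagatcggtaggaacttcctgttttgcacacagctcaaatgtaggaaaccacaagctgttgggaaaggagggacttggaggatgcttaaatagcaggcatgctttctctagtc
Mpeg1 (chr19:12460520-12460697, plus strand): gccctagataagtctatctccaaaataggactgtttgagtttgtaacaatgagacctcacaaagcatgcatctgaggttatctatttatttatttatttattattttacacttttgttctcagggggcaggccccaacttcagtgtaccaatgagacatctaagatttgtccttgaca
The Aif1 and Laptm5 stretches lie inside the gene span of the count table, which starts further upstream than the RefSeq start used here.

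Among the lineage factors, Spi1 (gene ID 20375), at 91082368 to 91115759 on chromosome 2 of GRCm38.p6, measured 6.80, 5.44, 5.97 and 5.51 CPM in adult recipients 1 to 4 and 6.56, 5.82 and 7.52 CPM in adult controls 5 to 7. It measured 21.1, 14.4, 21.05 and 19.3 CPM in neonatal recipients 1, 2, 4 and 5, and 24.3, 15.3, 5.45 and 12.4 CPM in neonatal controls 6 to 9. The adult libraries were tightly grouped, and neonatal control 8 was the one neonatal library at their level. Spi1 fell in adult recipients by 1.68 on the log2 scale relative to neonatal recipients (SE 0.33, adjusted p = 0.00103), and in adult controls by 1.11 relative to neonatal controls (SE 0.36, adjusted p = 0.0332). The control call was lost without adult control 5, 6 or 7 or neonatal control 6 or 7 (adjusted p of 0.0667 to 0.106), and with the count filter removed or limma voom (0.0717 and 0.0836).

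Irf8 (gene ID 15900, chromosome 8, 120736358 to 120756694) had a narrower range. It measured 16.9, 11.5, 17.9 and 16.6 CPM in adult recipients and 17.8, 12.99 and 18.4 CPM in adult controls. In neonatal recipients it measured 30.4, 25.8, 37.01 and 33.5 CPM, and in neonatal controls 29.3, 20.6, 15.8 and 20.8 CPM. Every neonatal recipient lay above every adult library, while neonatal control 8 lay among the adult values. The difference between recipients was -1.005 ± 0.18 (SE, adjusted p = 0.000321), and that between controls, -0.40 ± 0.20, did not pass (adjusted p = 0.142, or 0.0338 without neonatal control 8 and 0.0465 with library totals).

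On the CSF1 axis the ligand gene Csf1 (gene ID 12977, chromosome 3, 107741048 to 107760469) was the member closest in level between ages. It measured 22.2, 22.2, 23.6 and 19.4 CPM in adult recipients, 28.7, 29.4 and 27.6 CPM in adult controls, 38.2, 31.8, 57.1 and 30.8 CPM in neonatal recipients, and 36.4, 39.7, 20.9 and 34.6 CPM in neonatal controls. Neonatal recipient 4 was the highest library and neonatal control 8 the one neonatal library below the adult controls. Csf1 fell in adult recipients relative to neonatal recipients (-0.85 ± 0.20, adjusted p = 0.00305), and the control difference of -0.21 ± 0.22 did not pass (adjusted p = 0.512).

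The receptor gene Csf1r (gene ID 12978, chromosome 18, 61105572 to 61131139) measured 28.8, 26.04, 35.1 and 31.8 CPM in adult recipients and 31.6, 27.3 and 35.8 CPM in adult controls. Its levels were 81.9, 66.2, 62.7 and 75.3 CPM in neonatal recipients and 69.4, 41.3, 27.9 and 44.4 CPM in neonatal controls. Neonatal control 6 reached the recipients' range, and neonatal control 8 fell within the adult range. The fall in adult recipients was 1.23 on the log2 scale (SE 0.22, adjusted p = 0.000366). Between controls it measured -0.53 ± 0.23 (adjusted p = 0.101, or 0.00522 without neonatal control 8, 0.0352 with DESeq2 and 0.0335 with library totals).

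Of the surface markers, Adgre1 separated the ages further than the lineage factors and the CSF1 axis did. Adgre1 (gene ID 13733, chromosome 17, 57358581 to 57483529) measured 9.57, 5.84, 9.59 and 7.74 CPM in adult recipients and 8.72, 8.80 and 9.05 CPM in adult controls. It measured 46.5, 32.5, 29.3 and 35.4 CPM in neonatal recipients and 35.5, 19.6, 10.2 and 21.99 CPM in neonatal controls. No adult library reached the lowest neonatal one, neonatal control 8. The fall was 2.14 between recipients (SE 0.31, adjusted p = 0.000102) and 1.30 between controls (SE 0.34, adjusted p = 0.0112).

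Mertk (gene ID 17289, chromosome 2, 128698915 to 128803162) had smaller but more even differences. It measured 10.3, 8.52, 9.31 and 9.65 CPM in adult recipients, 12.2, 8.89 and 11.2 CPM in adult controls, 25.4, 21.6, 17.7 and 18.4 CPM in neonatal recipients, and 19.1, 17.4, 12.02 and 17.8 CPM in neonatal controls. Neonatal controls 6, 7 and 9 lay close together, and control 8 lay at the top of the adult range. Mertk fell by 1.14 between recipients (SE 0.15, adjusted p = 6.1e-06) and by 0.62 between controls (SE 0.16, adjusted p = 0.00601).

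Among the effectors, Lyz2 (gene ID 17105, chromosome 10, 117277541 to 117282272) was the member with the highest level per kilobase in all 4 groups. It measured 76.8, 53.5, 79.6 and 57.6 CPM in adult recipients and 52.2, 60.7 and 86.7 CPM in adult controls. Neonatal recipients had 338, 208, 203 and 215 CPM and neonatal controls 208, 128, 62.6 and 114 CPM. Neonatal recipient 1 was far above its group, and neonatal control 8 again overlapped the adults. Lyz2 fell by 1.85 between recipients (SE 0.33, adjusted p = 0.000593), and its control difference of -0.94 ± 0.36 missed the threshold (adjusted p = 0.0636, or 0.0312 with DESeq2, 0.0379 with limma voom, 0.029 with library totals and 0.00943 without neonatal control 8). Lyz2 reads can be shared with the adjacent, closely similar Lyz1. Counts of Lyz1 were 3.04 to 4.24% of those of Lyz2 in adult recipients and 3.60 to 4.46% in adult controls. They were 3.83 to 3.86% in neonatal recipients and 3.06 to 4.64% in neonatal controls. Of 15 counts, 5 were whole numbers for Lyz2, 1 for Laptm5 and 0 for Mertk, against 8 to 15 for the other members.

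Laptm5 (gene ID 16792, chromosome 4, 130912890 to 130936148) measured 39.3, 22.5, 40.1 and 35.2 CPM in adult recipients and 32.2, 26.5 and 41.6 CPM in adult controls. It measured 126, 88.9, 115 and 108 CPM in neonatal recipients and 115.5, 66.99, 33.8 and 65.3 CPM in neonatal controls. Neonatal control 8 lay inside the adult range, and the other neonatal libraries lay above it. The fall was 1.67 between recipients (SE 0.32, adjusted p = 0.000953) and 1.07 between controls (SE 0.35, adjusted p = 0.0348). Among other settings, the control call was lost without adult control 5 or 6 or neonatal control 6, 7 or 9 (0.0534 to 0.118) and with no count filter (0.0615).

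Mpeg1 (gene ID 17476, chromosome 19, 12460698 to 12465285) showed the widest gap. Adult recipients had 15.1, 6.55, 17.2 and 13.5 CPM and adult controls 12.1, 12.7 and 20.6 CPM, against 215, 161, 155 and 159 CPM in neonatal recipients and 173, 79.1, 32.6 and 100.5 CPM in neonatal controls. The highest adult library remained below neonatal control 8. Mpeg1 fell by 3.72 between recipients (SE 0.47, adjusted p = 5.7e-05) and by 2.67 between controls (SE 0.51, adjusted p = 0.00241).

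Aif1 (gene ID 11629, chromosome 17, 35170986 to 35176083) had few counts and a short transcript (875 bases). It measured 2.92, 2.54, 2.25 and 2.01 CPM in adult recipients and 1.80, 1.90 and 1.46 CPM in adult controls. In neonatal recipients it measured 11.9, 7.16, 7.34 and 11.6 CPM, and in neonatal controls 10.9, 4.34, 2.61 and 4.58 CPM. One adult recipient exceeded neonatal control 8, and no other adult library reached a neonatal one. Aif1 fell by 1.97 between recipients (SE 0.35, adjusted p = 0.000327) and by 1.70 between controls (SE 0.40, adjusted p = 0.00573).

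**Figure D2:**
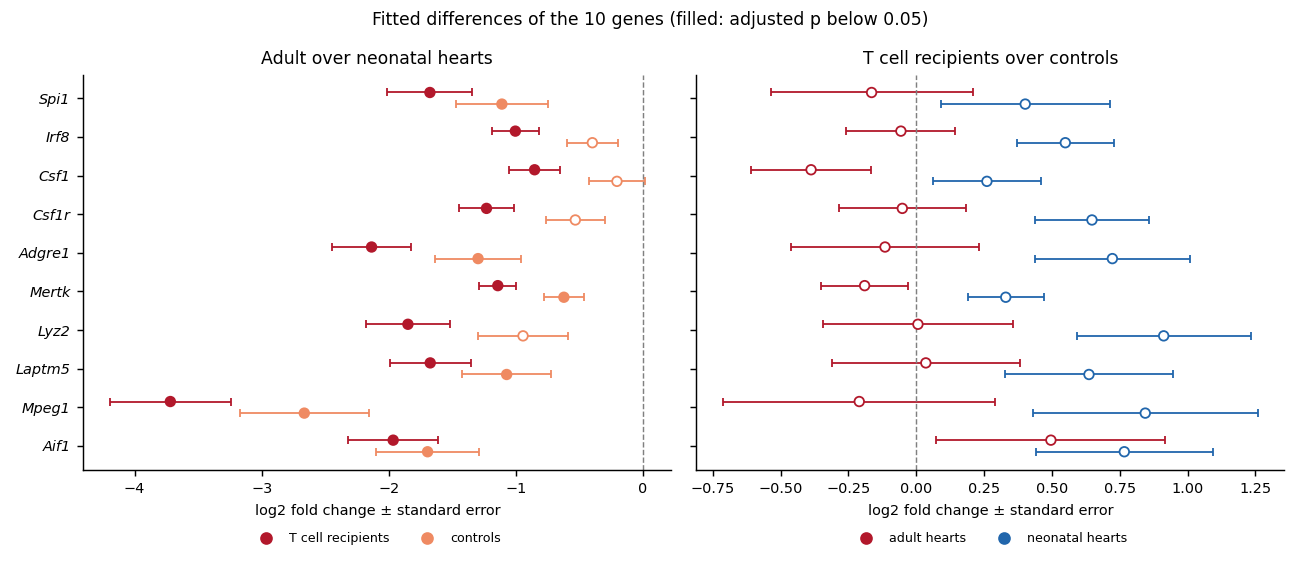
Log2 fold change with its standard error (horizontal axis) for each gene, adult over neonatal hearts on the left and T cell recipients over controls on the right; filled points have an adjusted p below 0.05. On the left all 10 points are filled for recipients and 6 for controls. On the right no point is filled, with adult values at -0.39 to 0.50 and neonatal values at 0.26 to 0.91.

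Across all 15 libraries, only Adgre1 and Mpeg1 separated every adult from every neonatal library, a share to be read against 8.27% of tested genes that separated in that direction. Without neonatal control 8 all 10 did, against 12.3%. Control 8 was singled out by the levels of these same 10 genes, so the rise was partly fixed in advance and is no test. That library alone overlapped the adult range for Spi1, Irf8, Csf1, Csf1r, Mertk, Lyz2, Laptm5 and Aif1. Other leukocyte markers did not share one pattern: 12 neutrophil markers summed to 15.4 to 31.0 CPM in adult recipients, 19.7 to 40.4 in adult controls, 40.5 to 67.8 in neonatal recipients and 30.3 to 73.2 in neonatal controls. The 12 T cell markers summed to 7.72 to 12.1, 6.05 to 8.68, 3.27 to 5.6 and 3.47 to 5.57 CPM in the same groups, with every adult sum above every neonatal one. Sums for 8 B and plasma cell markers were 12.6 to 18.3, 11.8 to 16.0, 10.2 to 13.8 and 7.41 to 10.5 CPM, and those for 8 dendritic cell markers 15.6 to 21.8, 24.0 to 28.1, 21.8 to 25.8 and 20.3 to 22.3 CPM. Of all these markers 1, a dendritic cell gene in adult controls, was at 0 throughout a group. Neutrophils also use Lyz2, and dendritic and B cells also use Irf8; their part in the age differences was not tested. The 8 endothelial markers summed to 1240 to 1400 CPM in adult recipients, 1240 to 1270 in adult controls, 889 to 1040 in neonatal recipients and 956 to 1000 in neonatal controls, with 5 called higher and 1 lower in adult hearts in both age comparisons, and their part was not tested either.

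Relative to Csf1r in the same library, the members did not scale together. The ratio of Mpeg1 to Csf1r was 0.251 to 0.525 in adult recipients and 0.384 to 0.577 in adult controls, against 2.11 to 2.63 in neonatal recipients and 1.17 to 2.49 in neonatal controls. That of Adgre1 was 0.224 to 0.332 in adult recipients and 0.253 to 0.322 in adult controls, against 0.467 to 0.568 in neonatal recipients and 0.367 to 0.511 in neonatal controls. For both genes the ages did not overlap, neonatal control 8 included. The ratio to Csf1r was likewise lower in every adult library for 0.967% of tested genes, higher for 7.82%, and without overlap in either direction for 8.79%. The remaining 7 ratios overlapped between the ages. For Aif1 only neonatal control 8 overlapped, at 0.0938 against 0.0409 to 0.101 in adult libraries, and the next neonatal library stood at 0.103. The ratios of Spi1, Lyz2 and Laptm5 reached higher in neonatal libraries. They spanned 0.170 to 0.236, 1.65 to 2.66 and 0.863 to 1.36 over the adult libraries. Over the neonatal ones they spanned 0.196 to 0.371, 2.25 to 4.12 and 1.215 to 1.83. The ratio of Irf8 to Csf1r spanned 0.441 to 0.588 over the adult and 0.372 to 0.590 over the neonatal libraries, and that of Mertk 0.265 to 0.386 and 0.245 to 0.432. The ratio of the ligand to its receptor, Csf1 to Csf1r, was 0.608 to 1.07 in adult and 0.409 to 0.963 in neonatal libraries. These ratios were chosen after the levels were seen and are given without a test.

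**Figure D3:**
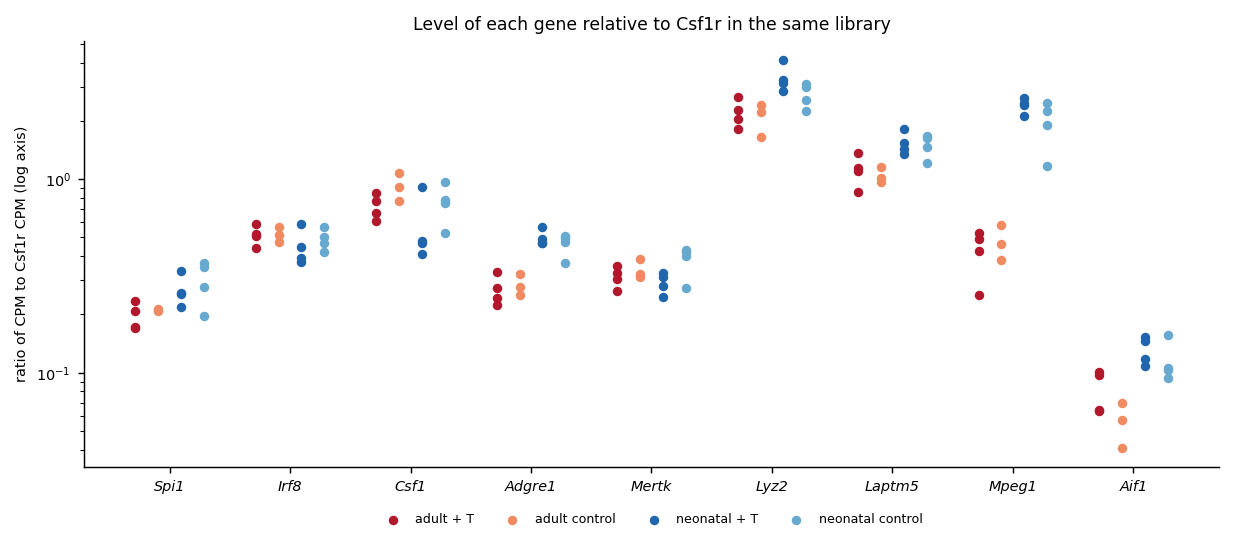
CPM of each gene divided by the CPM of Csf1r in the same library (vertical log axis), 1 point per library and 1 colour per group. Irf8 and Mertk overlap between the ages, while Mpeg1 lies at 0.251 to 0.577 in adult and 1.17 to 2.63 in neonatal libraries.

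Levels of different genes were compared per kilobase of the longest annotated transcript. On that scale Lyz2 held rank 1 in all 4 groups, at 50.8 CPM per kb in adult recipients, 50.6 in adult controls, 183 in neonatal recipients and 97.3 in neonatal controls, and Laptm5 held rank 2, at 13.2, 12.9, 42.1 and 27.1. Mpeg1 held rank 6 in adult hearts, with 3.02 CPM per kb in recipients and 3.49 in controls, and rank 3 in neonatal hearts, with 39.8 and 22.2. Mertk held rank 10 in 3 groups and rank 9 in adult controls, at 2.19, 2.5, 4.83 and 3.86 CPM per kb in the order of the groups above. Below rank 2 the adult levels lay close together, and the order has no test behind it.

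In neonatal hearts, all 10 macrophage genes had higher fitted levels with T cells than without, but none passed the test. The log2 fold changes were 0.91 ± 0.32 (SE) for Lyz2, 0.84 ± 0.41 for Mpeg1, 0.77 ± 0.33 for Aif1, 0.72 ± 0.29 for Adgre1, 0.65 ± 0.21 for Csf1r and 0.64 ± 0.31 for Laptm5. The other values were 0.55 ± 0.18 for Irf8, 0.40 ± 0.31 for Spi1, 0.33 ± 0.14 for Mertk and 0.26 ± 0.20 for Csf1. The median was 0.64, against 0.00 over all tested genes, of which 8209 had positive values. Neither edgeR nor limma voom called any of the 16437 genes (0%) in this comparison, and DESeq2, run on 27956 genes without the count filter, called 0. Each member had an adjusted p of 0.999 with edgeR. At an unadjusted p below 0.05 there were 6 members (Irf8, Csf1r, Lyz2, Adgre1, Mertk and Aif1) among 513 genes.

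The difference depended on single libraries. On the log2 scale, recipients 1, 2, 4 and 5 had median deviations from the mean of the 8 neonatal libraries of 0.58, 0.17, 0.34 and 0.38, and recipient 1 was the highest library for 7 genes. Control 6 had a median of 0.37 (0.06 to 0.70), among the recipients' medians, and was the highest neonatal library for Spi1. Controls 7 and 9 had medians of -0.35 and -0.31, and control 8 a median of -1.33. With all libraries, recipients and controls overlapped for every member, whereas 1.36% of tested genes did not overlap. Without control 6, the recipients lay above the other controls for 7 members, a separation seen in 4.3% of tested genes, the median was 0.95, and Csf1r (0.92) and Aif1 (1.31) passed with an adjusted p of 0.044 each, among 9 genes called. Control 6 was singled out by these same genes, so the count of 7 and these calls follow in part from that choice. Without control 8 the median was 0.44, with 10 positive values of 0.09 to 0.68, and none passed. Control 8 also had the lowest sums of neutrophil markers, which ran from 40.5 to 67.8 CPM in recipients and from 30.3 to 73.2 CPM in controls, and of 8 fibroblast markers, which ran from 4680 to 4970 CPM in recipients and from 3120 to 5110 CPM in controls. The T cell markers summed to 3.27 to 5.6 CPM in neonatal recipients and 3.47 to 5.57 CPM in neonatal controls, ranges that overlapped. The part of these cell types in the result was not tested.

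**Figure D4:**
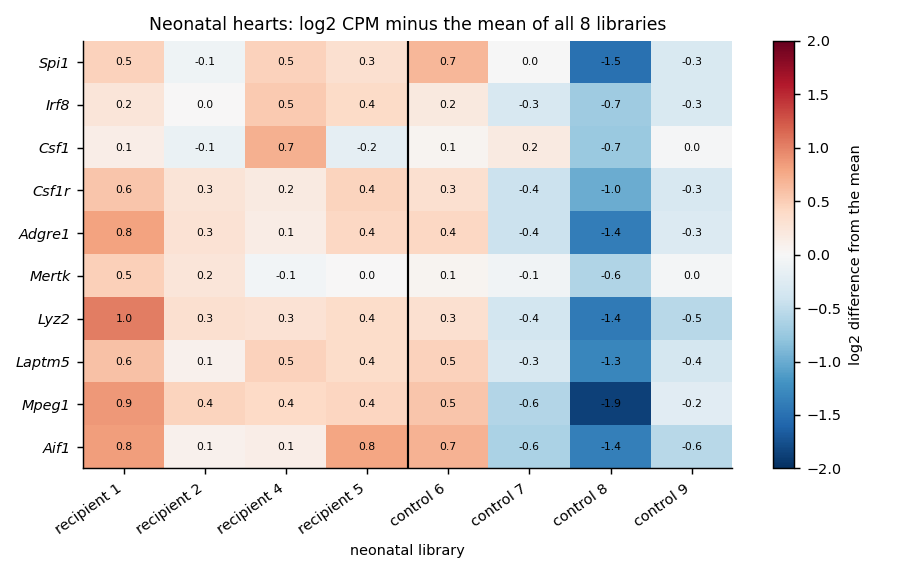
Log2 CPM of each gene in each neonatal library minus the mean over the 8 libraries (colour scale and printed values); recipients stand left of the black line and controls right of it. Control 8 is negative for all 10 genes, down to -1.86 for Mpeg1, and control 6 is positive for all 10.

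In adult hearts, no single macrophage gene differed detectably with T cells, and the 10 genes were not tested as a set. Log2 fold changes ran from -0.39 to 0.50, with a median of -0.09 and 3 positive values, and none passed (adjusted p of 0.276 to 0.993, edgeR; 0 also with DESeq2 and limma voom, and 0 at an unadjusted p below 0.05), while 8.55% of all tested genes did. Over all genes, 0 passed without adult recipient 4, control 5 or control 6. Log2 fold changes here fell with transcript length (Spearman -0.448 over the 15334 genes with a known length). In a refit with this trend removed 0 of these genes passed, and the members ran from -0.322 to 0.33. In the main fit Csf1 had the lowest value, -0.39 ± 0.22 (adjusted p = 0.276), and its recipients, at 19.4 to 23.6 CPM, all lay below its controls, at 27.6 to 29.4. Aif1 had the highest, 0.50 ± 0.42 (adjusted p = 0.484), with recipients at 2.01 to 2.92 CPM above controls at 1.46 to 1.90. Non-overlapping libraries were found for 25.1% of tested genes here, 12% in the lower and 13.1% in the higher direction, so 2 of 10 members is near the background. The largest standard error was that of Mpeg1 (-0.21 ± 0.50), for which recipient 2 was the lowest adult library. Recipient 2 was the lowest adult library for 7 members and control 7 the highest for 6. Ventricular cardiomyocyte markers also moved with the groups, at 59300 to 65600 CPM in recipients and 47400 to 51400 CPM in controls, and their part in these values was not tested.

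The fitted T cell effect in adult minus that in neonatal hearts was negative for each gene, at -1.05 (Mpeg1) to -0.27 (Aif1) on the log2 scale with a median of -0.63 (-0.01 over all tested genes), and no difference passed (adjusted p of 0.256 to 0.846). edgeR called 0 of 16437 genes (0%), limma voom 0 and DESeq2 180 of 27956, none of them a member. At an unadjusted p below 0.05 there were 4 members (Mertk, Irf8, Csf1r and Csf1) and 2511 genes. Without neonatal control 8 the values ran from -0.75 to -0.01. Over all genes these differences also fell with transcript length (Spearman -0.408), and with this trend removed the members ran from -1.03 to -0.433. This comparison shares its libraries with both T cell comparisons and adds no independent sample.

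Of all tested genes, 26.9% were called lower in adult recipients and 15.4% in adult controls, and the counts for genes that act with the 10 members are read against these shares. Of 20 further leukocyte and macrophage genes, 19 were called lower in adult than in neonatal recipients and 16 in adult than in neonatal controls. The medians were -1.99 and -1.28, and none was called higher. Cd163 had positive values of 0.81 in recipients and 0.14 in controls (adjusted p = 0.0931 and 0.833, edgeR). Cx3cr1 had 0.33 in controls (adjusted p = 0.118, edgeR) but was called lower in recipients. The scavenger receptor gene Msr1 measured 1.98 ± 0.41 CPM in adult recipients and 2.85 ± 0.10 in adult controls, against 26.2 ± 7.89 in neonatal recipients and 19.9 ± 10.1 in neonatal controls (SD). Its log2 fold changes were -3.73 ± 0.45 and -2.80 ± 0.47 (SE). Cd68, a lysosomal glycoprotein gene, had -2.94 ± 0.40 and -2.49 ± 0.44, and Cd53, a leukocyte tetraspanin gene, -2.83 ± 0.39 and -2.09 ± 0.42.

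Of 16 CSF1R signalling genes, 14 fell and 1 rose in adult recipients, and 12 fell and 1 rose in adult controls. Vav1, an exchange factor of blood cells, had -2.82 ± 0.34 and -1.88 ± 0.36. Of 8 tested colony-stimulating factor and receptor genes, 4 fell in recipients and 2 in controls, among them Csf2rb, the shared beta chain of GM-CSF and interleukin 3 receptors (-2.56 ± 0.41 and -1.999 ± 0.45). The second CSF1R ligand gene, Il34, had 0.44 ± 0.27 and 0.51 ± 0.30 and did not pass (adjusted p = 0.188 and 0.205), a value given because of its role.

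Of 17 tested PU.1 partners and myeloid transcription factors, 9 fell and 2 rose in recipients, and 9 fell and 1 rose in controls. Cebpa, a myeloid lineage factor, fell by 2.22 (SE 0.25) and 1.39 (SE 0.27), and Maf fell by 1.65 (SE 0.20) and 1.23 (SE 0.22). Klf4, which monocytes share with vascular cells, rose by 1.04 ± 0.12 and 1.18 ± 0.13, at 48.8 ± 7.78 CPM in adult recipients and 51.3 ± 6.495 in adult controls against 23.7 ± 1.99 in neonatal recipients and 22.6 ± 3.39 in neonatal controls. Of 17 tested genes of TAM receptors, their ligands and engulfment, 9 fell and 2 rose in recipients, and 6 fell and 2 rose in controls. Itgav, an integrin subunit that binds bridging proteins on dying cells, fell by 1.34 (SE 0.14) and 0.94 (SE 0.15). Axl, a relative of Mertk, measured 131 ± 9.26 CPM in adult recipients, 141 ± 15.4 in adult controls, 154 ± 14.96 in neonatal recipients and 140 ± 22.8 in neonatal controls.

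Of 4 further tested genes, Lyz1, Adgre4, Adgre5 and Cd33, 3 fell in recipients (all but Adgre5) and 1, Lyz1, in controls. Lyz1 had -1.84 ± 0.24 and -0.76 ± 0.26. No relative of Mpeg1 was among them, since the perforin gene Prf1 had too few counts to be tested. Lyz1 had 1.05 ± 0.22 with T cells in neonatal hearts, an unadjusted p of 0.000165 and an adjusted p of 0.999 (edgeR). Reads of Lyz1 can be shared with the member Lyz2, so its values may not be independent of those of Lyz2.

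With T cells, none of these lists had a called member in neonatal hearts. Positive values were seen for 19 of 20 further macrophage genes (median 0.56), 16 of 16 CSF1R signalling genes (0.43), 15 of 17 transcription factors (0.30) and 13 of 17 engulfment genes (0.18). They were also seen for 6 of 8 colony-stimulating factor and receptor genes (0.32) and 4 of 4 genes listed with Lyz1 (0.68). Of all tested genes, 8209 of 16437 were positive. Neonatal control 8 had the lowest neonatal sums of the further macrophage genes (309 CPM) and CSF1R signalling genes (398 CPM). Genes of a list share these libraries and are not independent. In adult hearts the medians were -0.02, -0.08, 0.06, -0.01, -0.05 and 0.03 in the same order of lists. The calls there were Cbl, a ubiquitin ligase that turns over CSF1R, which fell (-0.41 ± 0.12, adjusted p = 0.0448, edgeR), and Mfge8, a bridging protein, which rose (0.45 ± 0.10, adjusted p = 0.0208). Cbl was 1 of 16 CSF1R signalling genes and Mfge8 1 of 17 engulfment genes, while 8.55% of all tested genes were called in this comparison. The further macrophage genes and the transcription factors had 0 calls. In the same comparison 0 genes passed without adult recipient 4, control 5 or control 6, or with the transcript length trend removed.

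The genes whose library-to-library pattern was most like the mean of the 9 members other than Csf1 were Sirpa, Abcc3, Ctss, Cyp4v3, Il7r and Cd48. Likeness was the lower of the Pearson correlations of log2 CPM over 7 adult and over 8 neonatal libraries, and ran from 0.929 for Cd48 to 0.969 for Sirpa. Sirpa encodes a myeloid inhibitory receptor, Ctss the protease cathepsin S, and Il7r the interleukin 7 receptor. Among the genes nearest to Csf1 were Vav2, Cklf, Fndc3a and Slfn4, with lower values of 0.819 to 0.877. Libraries share depth and neonatal control 8, so these values describe likeness and carry no test.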

How the data were processed

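Messenger RNA of 15 libraries was measured. The submitters' processing notes name bcl2fastq 2.20.0.422, cutadapt 2.5 (trimming), STAR 2.7.2b (alignment), featureCounts 1.6.4 (counting), DESeq2 1.24.0 and the build GRCm38.p6. The authors deposited 1 table of unscaled expected counts per gene, with reads split into fractions (61.1% of non-zero values are whole). Strand setting, counted feature and the rule for fractions are not given in the sources used here, so overlapping and antisense genes may share reads. The length column equals the genomic span and was not used.

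Counts were rounded, filtered with filterByExpr (minimum count 10, minimum total 15), TMM-scaled and fitted in 1 robust quasi-likelihood model with 1 coefficient per group (edgeR 4.0.16, R 4.3.3). The 5 contrasts were two-sided, and p-values were Benjamini-Hochberg adjusted over all 16437 tested genes, and called below 0.05. Each standard error was derived from the fold change and its quasi-likelihood F statistic (|log2 fold change|/√F). Log2 CPM used a prior count of 1. The median standard error was 0.114 to 0.169. Floors cover counting error only. Alternatives were other scalings, no filter, DESeq2 1.42.0, limma voom 3.58.1 on unrounded counts, a transcript length offset (longest GENCODE M21 transcript, natural spline with 5 degrees of freedom, 15334 genes), each library left out, and the replicate number as a block. The fits with no filter and with DESeq2 covered 27956 genes. Promoters are RefSeq's (GRCm38.p6, 7 of 10 members matched). The fit was tested on simulated data.

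Members and lists were chosen with earlier results of these data known. Named genes are the members, up to 3 called genes per list and comparison (or up to 2 uncalled ones) with the smallest p, and the genes most alike by correlation. Predicted genes, pseudogenes and ribosomal proteins were left out of the last. Axl and Il34 were added for their roles, and not all genes named by the rule are printed.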

Additional observations from a re-analysis of the deposited data

Results flagged for a closer look

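In neonatal recipients, Lyz2 in recipient 1 stood at 338 CPM, against 203 to 215 CPM in the other 3 recipients, a gap of 0.914 of the group's range. Mpeg1 in the same library stood at 215 CPM, against 155 to 161 CPM, a gap of 0.903 of the range. Both exceed Dixon's 95% critical value of 0.83 for 4 samples. Chance flags about 1 in 20 groups, and 30 sets of 4 libraries were examined. Without recipient 1 the log2 fold change of Lyz2 with T cells in neonatal hearts was 0.70, and that of Mpeg1 was 0.72.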

How the results depend on the processing

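Every alternative called all 10 members lower in adult than in neonatal recipients. Log2 fold changes between recipients fell with transcript length (Spearman -0.26), and with that trend removed the members ran from -3.58 to -0.721. Between controls the count ran from 4 to 9 when 1 library was left out, 9 without neonatal control 8. With T cells in adult hearts, 1406 genes were called, 2303 with DESeq2, 0 with the length trend removed, and 0 to 1811 with 1 library left out (464 without adult recipient 2). The cause was not tested. In neonatal hearts 0 to 9 genes and 0 to 2 members were called with 1 library left out. The difference of the T cell effects had 180 calls with DESeq2. Signs near 0 turned for T cells in adult hearts: with the length trend removed, Csf1r had 0.0473, Lyz2 -0.126 and Laptm5 -0.00104, and with library totals Lyz2 had -0.0275. With 1 library left out, the ranges were -0.198 to 0.0668 for Irf8, -0.144 to 0.0472 for Csf1r, -0.199 to 0.0138 for Adgre1, -0.142 to 0.243 for Lyz2, -0.106 to 0.223 for Laptm5 and -0.362 to 0.0776 for Mpeg1. Numbers are shared between ages only. Same-numbered libraries correlated at -0.07 and 0.33 (controls 6 and 7) and at 0.12, 0.16 and -0.09 (recipients 1, 2 and 4), and not every sample correlated best with its own number, so the libraries share only a number. With the replicate block 3724 genes and 5 members were called in controls, and 7239 genes and 10 members in recipients, against 5085 and 8339 genes without it. In controls this block left Laptm5 (-1.4, adjusted p = 0.295) and Mpeg1 (-2.83, adjusted p = 0.277) uncalled and called Csf1 (-0.419, adjusted p = 0.0336). No paired fit exists for the T cell comparisons, whose groups share no number within an age.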
